A study of Mus musculus with 15 samples.

Results

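The 8 genes followed here code for the protein uptake machinery and other apical proteins of the proximal tubule: the endocytic receptors Lrp2 and Cubn, their partners Amn and Dab2, the membrane enzymes Anpep, Mme and Ggt1, and the water channel Aqp1. They were listed by name, and each was read from a probe set that carries its symbol alone, taking the brightest over all arrays where there was more than one. Of the 8, 7 were measured, among 19938 genes on the array, and Ggt1 is not analysed here because no probe set was named for it alone. Kidney cells carrying the Crym-EGFP reporter, listed as Tg(Crym-EGFP)82Gsat, were sorted from CD-1 mice at P4, P3, P2, P1 and P0 (postnatal days), with 3 samples a day, no treatment, and pups fostered to CD-1 females. The 3 P4 samples are labelled renal vesicle and the 12 samples of P0 to P3 cap mesenchyme, so that compartment and age at P4 cannot be told apart. The design text of the series calls all 5 days cap mesenchyme, so renal vesicle at P4 rests on the sample labels alone. In this transgene Crym regulatory sequence drives green fluorescent protein, so every sample depends on where that sequence is active, and how cells were gated to give renal vesicle at P4 is not stated in what was read here. Each sample was a pool of about 4 kidneys of unknown sex. Whether pools of one day stem from different litters is not labelled, so p-values reflect only the scatter among these 15 pools, part of which may be technical.

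The proximal tubule reclaims filtered protein, peptides, solutes and water. Lrp2 (megalin) is a very large membrane receptor of the LDL receptor family. Cubn (cubilin) has no membrane-spanning part of its own and is carried to the apical surface by Amn (amnionless). Both receptors bind filtered proteins such as albumin and vitamin carriers, and Dab2 is an adaptor that links the tail of megalin to clathrin-coated pits. Anpep (aminopeptidase N), Mme (neprilysin) and Ggt1 (gamma-glutamyl transferase) are enzymes of the brush border, the apical carpet of microvilli, and Aqp1 lets water cross the cell. In the developing nephron the cap mesenchyme, made of progenitors around the ureteric bud tips, condenses into the renal vesicle, an epithelial sphere that is then patterned into podocyte, proximal and distal parts.

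The values below are on the log2 scale, so a difference of 1 is a doubling. Values over all probe sets and arrays lay between 2.38 and 13.76, with medians of single arrays between 6.80 and 6.92. A gene entered the test across genes when it was above the median of all values, 6.86, in at least 3 arrays, which 11885 genes did and which the 3 P4 arrays alone can satisfy. Lrp2, Amn, Dab2, Anpep and Mme passed, which is 5 of the 7, and Cubn and Aqp1 were above 6.86 in 0 of 15 arrays. The label check gene Crym lay between 7.68 and 7.98 at P4 and between 10.24 and 12.15 in cap mesenchyme, and Six2, the progenitor regulator, lay between 8.11 and 8.68 at P4 and between 9.49 and 11.17 in cap mesenchyme. Both fell at P4 in the limma fit (adjusted p = 3.85e-09 and 1.39e-06). Of 11 cap mesenchyme markers 8 fell at P4, against 2.32% of all genes, and of 11 renal vesicle markers 9 rose, against 3.41%. Of the 9, Emx2 met the filter only with its P4 arrays, and Wnt4 did not pass with no filter (limma, adjusted p = 0.0676). Part of this shift came before P4. In P3 versus P0, 5 of the cap mesenchyme markers fell and 7 of the renal vesicle markers rose, against 2.18% of all genes in either direction. In P4 versus P3, 5 fell and 1 rose, Dkk1, against 1.49%. The marker lists were chosen with earlier results of these data known, and Crym is the gene of the reporter. These counts and values therefore describe the labels and are no independent test of them. The first replicates of all 5 days stood apart from the others: the interquartile range of their values was 2.14 to 2.27, against 2.52 to 2.77 in replicates 2 and 3, and 5048 of the 11885 genes differed between both sets. For that reason values are also given within replicate numbers and after blocking on this array set where a call changes.

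The promoters of 4 of the genes are shown because the results turn on them: Lrp2 and Cubn, partners in uptake of which Lrp2 passed the test at P4 and Cubn did not, and Anpep and Mme, both peptidases. Each sequence covers 250 bases before and 50 after the annotated start, 5′ to 3′ on the strand of the gene, from RefSeq on build GRCm38.p6. The windows are chr2:69585980-69586279 for Lrp2, chr2:13491827-13492126 for Cubn and chr7:79848161-79848460 for Anpep, all on the minus strand, and chr3:63294961-63295260 on the plus strand for the first of 3 annotated starts of Mme. Capitals mark the GC box, searched as GGGCGG and its reverse complement CCGCCC.
Lrp2: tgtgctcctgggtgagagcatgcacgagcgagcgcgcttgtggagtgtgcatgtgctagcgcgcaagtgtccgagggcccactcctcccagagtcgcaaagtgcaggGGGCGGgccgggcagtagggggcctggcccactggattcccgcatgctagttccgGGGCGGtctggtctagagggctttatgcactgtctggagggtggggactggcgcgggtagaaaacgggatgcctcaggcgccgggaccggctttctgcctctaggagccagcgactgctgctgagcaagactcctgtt
Cubn: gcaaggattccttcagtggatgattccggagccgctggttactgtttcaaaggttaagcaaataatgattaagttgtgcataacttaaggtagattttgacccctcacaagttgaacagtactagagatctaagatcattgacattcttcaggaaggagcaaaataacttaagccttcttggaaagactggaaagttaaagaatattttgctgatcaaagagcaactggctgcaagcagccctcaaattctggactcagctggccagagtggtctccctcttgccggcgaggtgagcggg
Anpep: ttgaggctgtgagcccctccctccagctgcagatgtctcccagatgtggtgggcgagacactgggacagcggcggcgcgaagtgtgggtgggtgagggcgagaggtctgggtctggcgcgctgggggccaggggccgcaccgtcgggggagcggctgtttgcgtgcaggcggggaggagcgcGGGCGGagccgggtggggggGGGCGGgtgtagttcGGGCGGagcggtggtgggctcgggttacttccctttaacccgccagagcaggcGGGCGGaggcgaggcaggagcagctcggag
Mme: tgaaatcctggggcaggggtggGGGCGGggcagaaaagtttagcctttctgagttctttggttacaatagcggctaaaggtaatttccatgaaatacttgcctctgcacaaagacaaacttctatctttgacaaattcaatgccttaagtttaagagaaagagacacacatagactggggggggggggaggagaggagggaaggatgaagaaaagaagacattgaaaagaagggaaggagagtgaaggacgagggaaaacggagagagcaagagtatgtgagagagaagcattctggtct
The Lrp2 window held 2 GC boxes with a GC content of 65.0%, the Anpep window 4 with 72.3% and the Mme window 1 with 46.0%. The Cubn window held 0 and had a GC content of 44.3%. All 8 genes matched the RefSeq table, with 14 annotated starts, and 9 of the 14 windows held a GC box, against 35.7% of the 32851 windows of the same length in the table. The half-site GTTAAT or ATTAAC of the HNF1 factors, which act in proximal tubule cells, was in 1 of the 14 windows, the second start of Dab2, against 7.1% of all windows. The TATA box TATAAA or TTTATA was in 1 of the 14, the fourth start of Ggt1, against 13.6%. A match is a description of the letters and not a binding site.

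Lrp2 was higher at P4 than on any cap mesenchyme day. It read 7.61, 7.85 and 7.60 in the 3 P4 arrays. The 12 cap mesenchyme arrays ran from 6.58 through a median of 7.07 to 7.24, so that the lowest P4 array lay above the highest of them. The P4 mean was 7.68 ± 0.14 (SD, n = 3) and the cap mesenchyme mean 7.03 ± 0.18 (SD, n = 12), a log2 difference of 0.65 with SE 0.10 and a 95% interval of 0.44 to 0.87, or 1.57-fold (limma, adjusted p = 0.000791). The difference within replicate numbers 1, 2 and 3 was 0.47, 0.84 and 0.65. By day, Lrp2 averaged 7.14 ± 0.10 at P0, 7.09 ± 0.09 at P1, 7.10 ± 0.05 at P2, 6.80 ± 0.22 at P3 and 7.68 ± 0.14 at P4 (SD, n = 3 each). The lowest day was thus P3, directly before the highest, and the P3 arrays read 7.02, 6.80 and 6.58.

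Mme was also higher at P4 than on any cap mesenchyme day. This metallopeptidase degrades small peptides and is known in podocytes as well as in proximal tubule. It read 9.21, 8.96 and 8.77 at P4, and 6.90, 7.74 and 7.94 as the lowest, median and highest of the cap mesenchyme arrays. No cap mesenchyme array reached the P4 values. The means were 8.98 ± 0.22 at P4 (SD, n = 3) and 7.58 ± 0.33 in cap mesenchyme (SD, n = 12), a log2 difference of 1.40 with SE 0.18 and an interval of 1.02 to 1.77, or 2.63-fold (limma, adjusted p = 0.000137). Within replicate numbers 1, 2 and 3 it was 1.46, 1.45 and 1.27.

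Cubn, the partner of megalin, did not pass the test. Its values at P4 were 6.21, 5.59 and 5.85, inside the cap mesenchyme range of 5.48 to 6.21, whose median was 5.78. The log2 difference was 0.04 with an interval of -0.29 to 0.38 (limma with no filter on low values, adjusted p = 0.999). All 15 of its values lay below the median of the arrays, so a change at a level under the reach of this probe set could not have been seen. The first replicates read 0.40 higher on average than replicates 2 and 3, more than any difference between days.

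Amn and Dab2, the escort and the adaptor, did not pass either, and their groups overlapped. Amn read 7.15, 7.25 and 7.36 at P4, against 7.0, 7.32 and 7.44 as the lowest, median and highest in cap mesenchyme. The log2 difference was -0.02 with an interval of -0.23 to 0.20 (limma, adjusted p = 0.986). Dab2 read 8.90, 9.07 and 8.86 at P4, against 8.48, 8.85 and 9.09 as the lowest, median and highest in cap mesenchyme, with a difference of 0.09 and an interval of -0.14 to 0.33 (adjusted p = 0.874). Dab2 was thus above the array median in all 15 arrays, those of the progenitors included. Its second probe set was dim, at 4.21 to 4.71 over all arrays, and was not used. The intervals of Cubn, Amn and Dab2 all ended below 0.44, the lower end of the interval of Lrp2, while the difference between these genes itself was not tested.

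Anpep lay between these patterns. This aminopeptidase read 7.42, 8.0 and 7.80 at P4, against 6.37, 7.20 and 7.53 as the lowest, median and highest in cap mesenchyme, so that the first P4 array fell inside the cap mesenchyme range. The difference of 0.59 (SE 0.20, interval 0.15 to 1.02) did not pass in limma over all genes (adjusted p = 0.135). The first replicates of Anpep read 0.49 lower on average than the others, and within replicate numbers 1, 2 and 3 the P4 difference was 0.59, 0.70 and 0.48. Once array set was fitted as a block, the same difference had SE 0.13 and passed (adjusted p = 0.00657), as it did in replicates 2 and 3 alone (adjusted p = 0.0328). Leaving out single arrays gave adjusted p from 0.0502 to 0.491.

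Aqp1 read 6.45, 6.54 and 6.76 at P4, against 6.17, 6.46 and 6.72 as the lowest, median and highest in cap mesenchyme. The groups overlapped and every value was below the array median. Its difference of 0.13 had an interval of -0.14 to 0.40 (limma with no filter, adjusted p = 0.993).

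**Figure D1:**
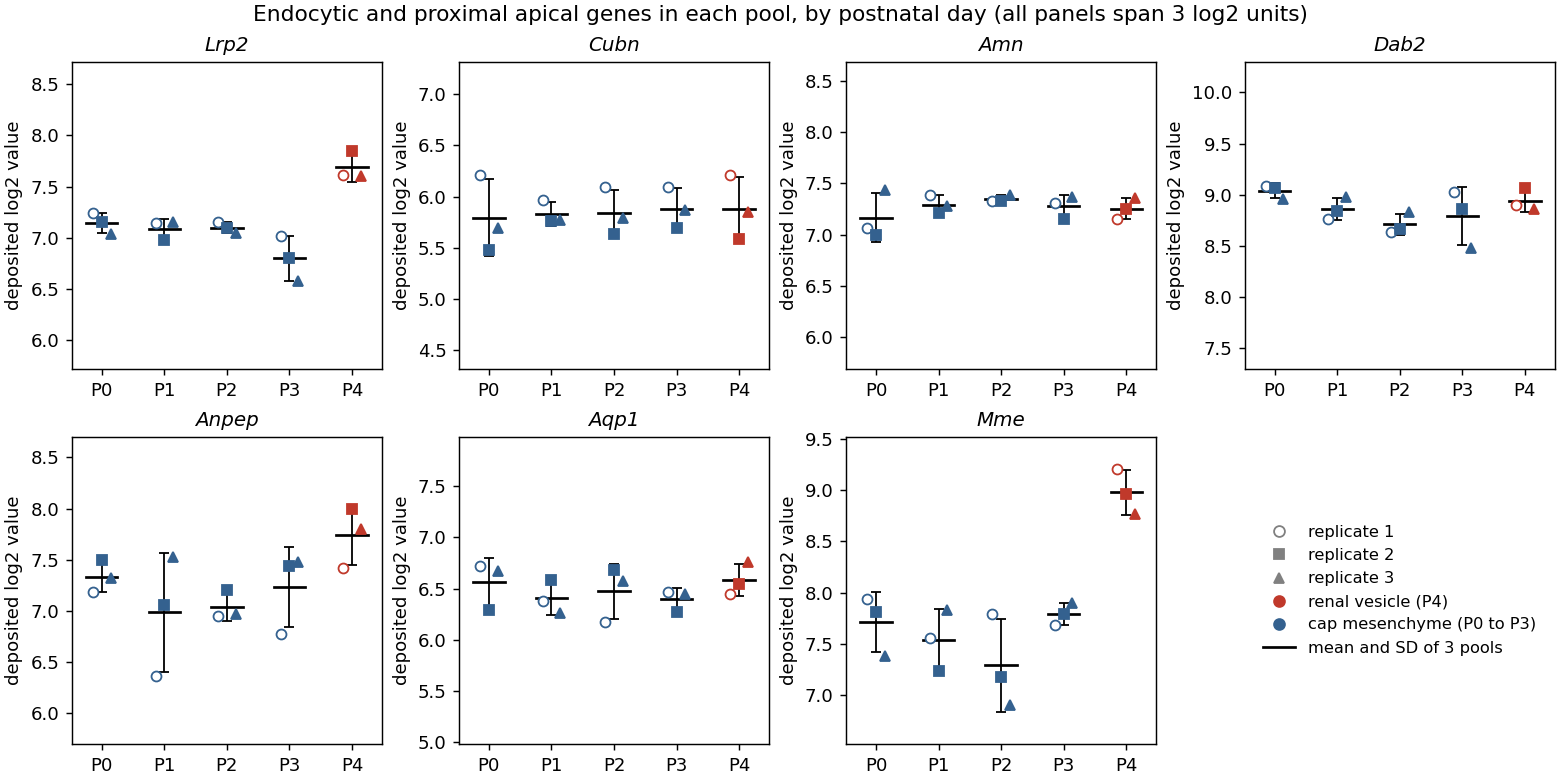
Deposited log2 values of the 7 measured genes by day, 1 panel a gene, with a symbol for each array (circles, squares and triangles for replicates 1, 2 and 3; red for P4, blue for cap mesenchyme) and bars at the mean and SD of each day (n = 3). In Lrp2 and Mme all 3 P4 arrays lie above the 12 cap mesenchyme arrays, while in Cubn, Amn, Dab2, Anpep and Aqp1 the groups overlap.

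In P4 versus cap mesenchyme, 2 of the 5 genes tested rose (Lrp2 and Mme) and 0 fell, against 3.41% of all 11885 genes called higher, 2.32% called lower and 5.73% called in either direction. The median difference of the 5 was 0.59, beside a median over all genes of 0. The same 2 were those whose P4 arrays all lay above the cap mesenchyme arrays, as 2.38% of all genes did. The 2 dim genes were tested in the fit with no filter, where 3.48% of 19938 genes were called. In these pooled cells a larger share of cells that express a gene cannot be told apart from more RNA per cell.

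**Figure D2:**
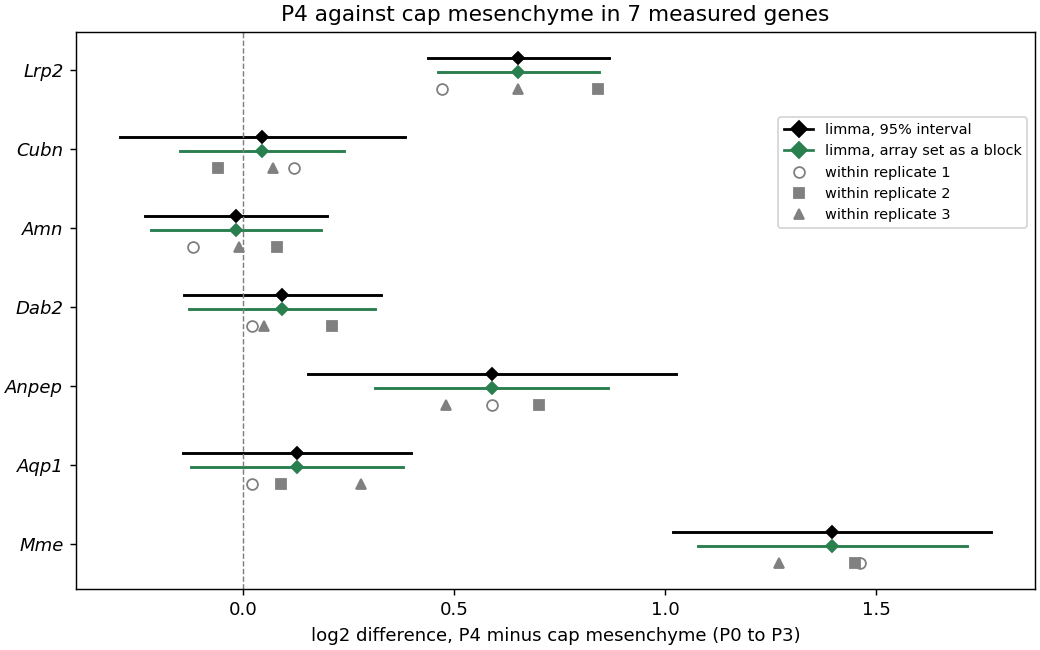
Log2 difference of P4 over the mean of the cap mesenchyme days for each measured gene, as diamonds with 95% intervals from limma (black) and from limma with array set as a block (green), and as grey symbols within each replicate number. Mme (1.40) and Lrp2 (0.65) lie above 0 in every replicate number, Anpep does so too without passing the test, and the intervals of Cubn, Amn, Dab2 and Aqp1 hold 0.

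The last step, P4 versus P3, asks whether the change came late. Lrp2 was 0.89 higher at P4 than at P3 (SE 0.13, 1.85-fold, limma adjusted p = 0.0019). Mme was 1.19 higher at P4 than at P3 (SE 0.22, 2.28-fold, adjusted p = 0.0123). These were 2 of the 5 genes tested, against 1.04% of all genes called higher and 1.49% in either direction (0.853% with no filter). The call on Mme was lost without P3 replicate 1 (adjusted p = 0.0581), P4 replicate 1 (0.0573) or P4 replicate 2 (0.0612), and in replicates 2 and 3 alone (0.0626), whereas that on Lrp2 was kept in each of these. Anpep was 0.51 higher at P4 with an interval of -0.04 to 1.06 (adjusted p = 0.745).

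Among the cap mesenchyme days themselves 0 of the 5 genes passed in P3 versus P0, against 2.18% of all genes in either direction, and 0 passed in the slope over P0 to P3, against 3.13% (1.10% and 1.63% with no filter). At an unadjusted p under 0.05, limma gave 1 of the 7 measured genes in each, Lrp2. It was lower at P3 than at P0 (log2 difference -0.34, SE 0.13, unadjusted p = 0.0166, adjusted p = 0.272), and it was so in all 3 replicate numbers. Its slope was -0.10 a day (adjusted p = 0.27). Dab2 had its highest day mean at P0, 9.04, and its slope of -0.09 a day did not pass either (adjusted p = 0.442). Mme averaged 7.71 ± 0.29, 7.54 ± 0.30, 7.29 ± 0.46 and 7.79 ± 0.11 over P0, P1, P2 and P3 (SD, n = 3 each), a slope near 0 (adjusted p = 0.996).

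Mme and Anpep were set beside Dpp4 and Enpep, also membrane peptidases of the proximal brush border. These were picked from a list of brush border enzymes by their small p in P4 versus cap mesenchyme. Their rise there thus follows from the choice. Ace, Mep1a, Mep1b, Dpep1, Xpnpep2 and Naalad2, other peptidases of that list, were under the filter. Dpp4 (dipeptidyl peptidase 4) read 9.15, 9.36 and 9.26 at P4, against 6.14 to 7.07 in cap mesenchyme. It was 6.53-fold higher at P4 (log2 difference 2.71, limma adjusted p = 9.14e-08), and was higher at P4 than at P3, with 9.25 ± 0.10 at P4 against 6.74 ± 0.33 at P3 (SD, n = 3 each, adjusted p = 5.83e-06). Dpp4 met the filter only through its P4 arrays, since 1 of its 12 cap mesenchyme arrays was above 6.86, and in the fit with no filter its adjusted p for P4 versus cap mesenchyme was 1.26e-07. Enpep (aminopeptidase A, which cuts angiotensin) read 9.92, 10.00 and 9.50 at P4, against 6.81 to 9.13 in cap mesenchyme, and was 4.36-fold higher (adjusted p = 3.67e-05).

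Unlike Dpp4, Enpep was already higher at P3 than at P0. Its day means were 7.26 ± 0.34 at P0, 7.16 ± 0.54 at P1, 7.53 ± 0.25 at P2, 8.77 ± 0.54 at P3 and 9.80 ± 0.27 at P4 (SD, n = 3 each). The difference of P3 over P0 was 1.51 (limma, adjusted p = 0.0144) and the slope 0.49 a day (adjusted p = 0.0101), among 1.09% and 1.65% of all genes called higher. The P3 over P0 call was lost without P0 replicate 3 (adjusted p = 0.083), P3 replicate 2 (0.0617) or P3 replicate 3 (0.0764), and the slope without P0 replicate 3 (0.0543). Whether the time courses of the 4 peptidases differ was not tested.

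**Figure D3:**
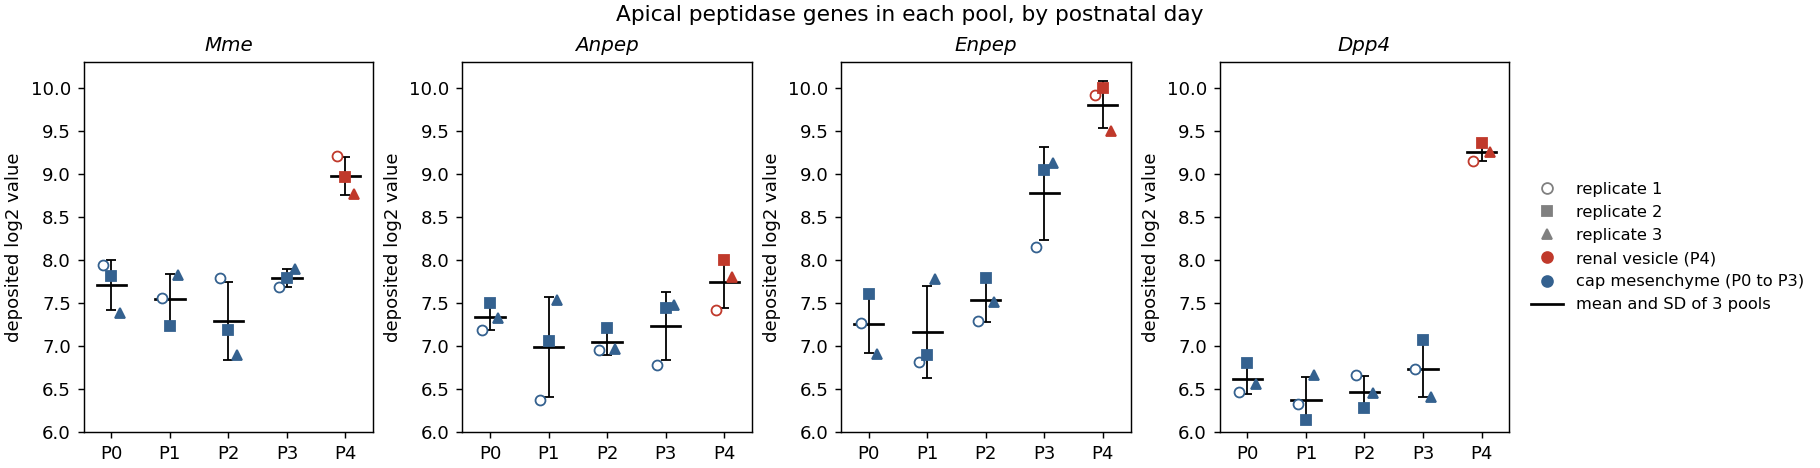
Deposited log2 values of the peptidases Mme, Anpep, Enpep and Dpp4 by day, with a symbol for each array and bars at the mean and SD of each day (n = 3). Enpep and Dpp4 were picked by their small p in P4 versus cap mesenchyme. Dpp4 stays between 6.14 and 7.07 up to P3 and lies above 9 at P4, whereas Enpep reads 8.15 to 9.13 at P3 already.

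The wider list of 16 brush border enzymes had 15 measured and 6 that passed the filter. Of the 6, 4 rose at P4, against 3.41% of all genes: Dpp4, Enpep, Car4 and Car14. The 6 are not a fair sample of the list, because Dpp4 entered only through the P4 arrays where it is high. No weight rests on any count of the 6 that involves P4, those against P3 included. Car4, a membrane carbonic anhydrase, read 8.20 to 9.26 at P4, against 6.38 to 7.96 in cap mesenchyme, 4.02-fold higher (limma, adjusted p = 3.14e-05). Car14, another carbonic anhydrase, was 1.68-fold higher (adjusted p = 0.0349) and did not pass once P0 replicate 3 (0.0527), P4 replicate 2 (0.257) or P4 replicate 3 (0.116) was left out. The other 9 measured enzymes, meprins (Mep1a and Mep1b), the dipeptidase Dpep1 and Ace among them, were under the filter. In P4 versus P3, 2 of the 6 rose, Dpp4 and Car4, against 1.04% of all genes. With the replicate number as a block 4 did so, where 2.31% of all genes were called higher. The call on Car4 was lost without P3 replicate 1 (adjusted p = 0.0689), P3 replicate 3 (0.0686), P4 replicate 2 (0.0924) or P4 replicate 3 (0.0962). With the replicate block Car4 was also higher at P3 than at P0, as were 3% of all genes.

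The structural genes of microvilli gave fewer calls. Of 14 genes 8 passed the filter and 1 rose, against 3.41% of all genes. That was Prom1, a protein of membrane protrusions that also marks immature epithelia. It read 8.82 to 8.93 at P4, against 6.99 to 8.14 in cap mesenchyme (2.51-fold, limma adjusted p = 1.73e-05), and it was 1.05 higher at P4 than at P3 (adjusted p = 0.0037). The core microvillus gene Vil1 and the protocadherin genes Cdhr2 and Cdhr5 were under the filter. Ezr, which ties the membrane to actin, differed by 0.44 (adjusted p = 0.37), Pls1 by 0.39 (0.15) and Eps8 by 0.23 (0.186). Blocking on array set, which raised the share of all genes called higher to 6.41%, 3 of the 8 rose, Ezr among them (adjusted p = 0.0145).

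The endocytic partners, which cover related receptors, adaptors, coat proteins and the acidifying pump, were mostly read above the array median. Of 28 genes 25 were measured, 24 passed the filter and 2 rose at P4, against 3.41% of all genes, with a median of 0.15. Vldlr, a relative of megalin, was 1.57-fold higher (limma, adjusted p = 0.00808; 0.0708 without P4 replicate 1). Myo6, the motor that moves endocytic vesicles off the apical membrane, was 1.76-fold higher (adjusted p = 0.0101) but did not pass once P4 replicate 1 (0.0744) or P4 replicate 2 (0.053) was left out, nor in replicates 2 and 3 alone (0.0513). The clathrin heavy chain gene Cltc differed by 0.42 (adjusted p = 0.0504) and Lrp1, another receptor of the family, by 0.44 (0.328). Blocking on array set, 7 of the 24 rose, with Cltc (0.0208) and Lrp1 (0.00127) among them, against 6.41% of all genes in the same fit. In P4 versus P3 limma called 0 of the 24, against 1.04% of all genes called higher. With the array set block it called 1, Vldlr, against 2.16%. Myo6 was 0.79 higher at P3 than at P0 (adjusted p = 0.0928), a difference that passed with the array set block (2.88% of all genes). Between P4 and P3 Myo6 differed by 0.37 (adjusted p = 0.862).

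Of 14 genes listed as proximal regulators, some of them general to the renal vesicle, 12 were measured and 8 passed the filter. Of the 8, 4 rose at P4, against 3.41% of all genes called higher, with a median of 1.06. Cdh6, a cadherin of the early proximal domain, was 3.34-fold higher (limma, adjusted p = 4.05e-06). The Notch ligand Jag1 was 4.93-fold higher (adjusted p = 1.17e-05), the renal vesicle regulator Lhx1 4.47-fold (0.001) and Osr2 3.80-fold (0.00182). Cdh6, Jag1 and Lhx1 are also renal vesicle markers in the list used for the label check, so both counts share them. The count of 4 therefore cannot tell a proximal identity apart from renal vesicle formation. Hnf4a, Maf (limma, adjusted p = 0.244), Notch2 (0.677) and Esrra (0.983) did not pass. Hnf4g, Ppara, Nr1h4 and Cebpd were under the filter. Blocking on array set, 6 of the 8 rose, against 6.41% of all genes in that fit.

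The same 3 genes had risen by P3. At P3, against P0, Cdh6 was 1.57 higher on the log2 scale (adjusted p = 0.000461), Jag1 2.41 higher (0.000378) and Lhx1 2.72 higher (0.00397). That made 3 of the 8, against 1.09% of all genes, and 5 with the replicate number as a block, against 3%. In P4 versus P3 limma called 0 of the 8, with 3 at an unadjusted p under 0.05 and 3 called with the replicate block (2.31% of all genes). For the receptors and apical genes the counts were 0 of 5 in P3 versus P0 and 2 of 5 in P4 versus P3. Hnf4a, a regulator of proximal differentiation, differed by 0.39 at P4 and did not pass in P4 versus cap mesenchyme (adjusted p = 0.188). Blocking on array set, it passed.

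Genes of mature proximal transport and metabolism showed small differences. Of 20 genes 18 were measured, 9 passed the filter and 2 rose, against 3.41% of all genes, with a median of 0.19. The organic anion transporters Slc22a6 and Slc22a8 were 1.36-fold and 1.46-fold higher at P4 (limma, adjusted p = 0.0247 and 0.0254). Both calls were lost when any single P4 array was left out (adjusted p of 0.0531, 0.0657 and 0.208 for Slc22a6 and 0.102, 0.0866 and 0.13 for Slc22a8), and in replicates 2 and 3 alone Slc22a8 did not pass (0.0595) and Slc22a6 was under the filter. Gatm, which makes the precursor of creatine, was 1.44-fold higher and did not pass (adjusted p = 0.179). Blocking on array set, 3 of the 9 rose, against 6.41% of all genes, with Gatm among them (0.0355). Gatm also passed in replicates 2 and 3 alone (0.0279). The sodium-hydrogen exchanger Slc9a3 and the amino acid transporter Slc6a19 were under the filter.

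**Figure D4:**
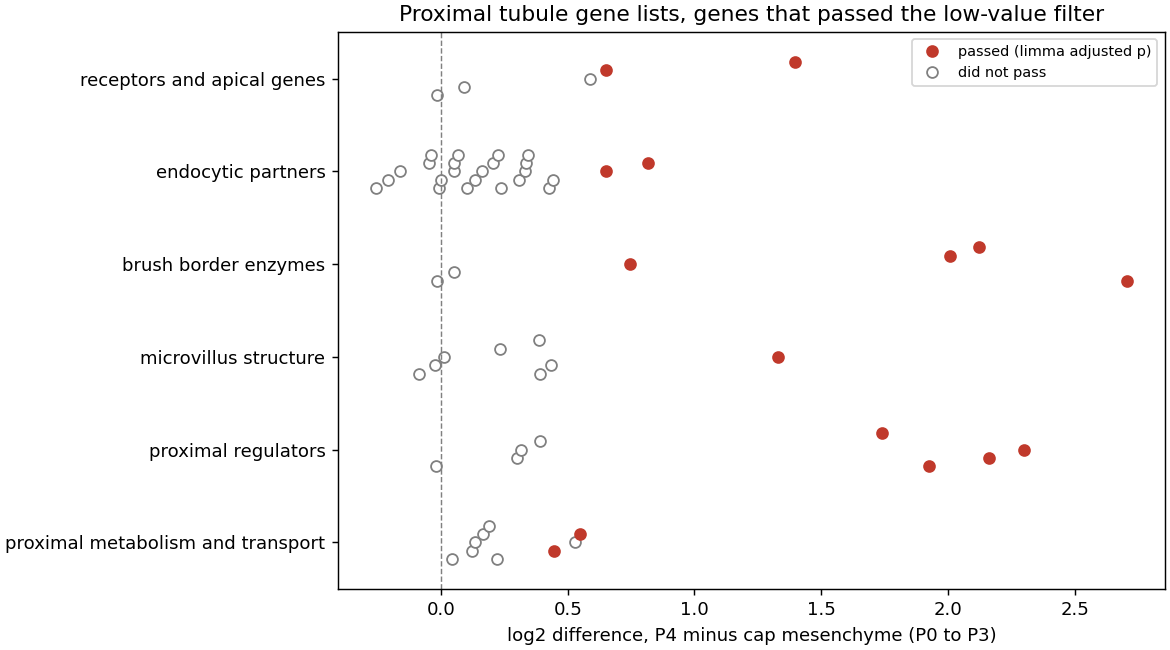
Log2 difference of P4 over cap mesenchyme for the genes of each list that passed the filter, 1 row a list, with a point for each gene, filled where limma called it. Dpp4 (2.71), Enpep (2.12) and Car4 (2.01) stand at the right of the brush border enzymes, whereas all but 2 of the 24 endocytic partners are open points.

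Some markers of other nephron parts were also higher at P4 than in cap mesenchyme. The summed linear level of 8 podocyte markers was 1545 to 2857 at P4 and 1110 to 2013 in cap mesenchyme. Of the 5 that passed the filter 3 rose, against 3.41% of all genes. Cldn5, which endothelium also makes, was 2.94-fold higher. Podxl was 1.53-fold higher, with the call lost without P4 replicate 2 (adjusted p = 0.138) or 3 (0.123). Plce1 was 1.58-fold higher, with the call lost in 6 of 15 cases when an array was left out (adjusted p up to 0.227). This call on Plce1 was also lost with no filter (0.0507) and in replicates 2 and 3 alone (0.0793). The slit diaphragm gene Nphs1 was under the filter, with 6.43 to 6.78 at P4 and 6.36 to 6.93 in cap mesenchyme, and so were Synpo and Ptpro. Of these, Ptpro did not overlap, at 6.79 to 7.02 at P4 and 5.73 to 6.21 in cap mesenchyme. In P4 versus P3 limma called 0 of the 5 podocyte markers, with 2 at an unadjusted p under 0.05, Podxl and Clic5. The share of all genes called higher in this step was 1.04%, and the median difference of the 5 was 0.5. Ptpro is not among the 5, and its P4 arrays all lay above its P3 arrays. Plce1 was higher at P3 than at P0 (log2 difference 1.04, adjusted p = 0.0231), lost in replicates 2 and 3 alone (0.0957) and without P0 replicate 1 (0.0917), P0 replicate 3 (0.0676) or P3 replicate 2 (0.0952), and it differed by 0.01 between P4 and P3. Podxl met the filter only with its P4 arrays, so no weight rests on the counts of the 5 that involve P4.

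The sum of 10 loop and distal markers was 1756 to 2075 at P4 and 934 to 1208 in cap mesenchyme. Of the 5 that passed the filter 2 were higher, Mecom and Tmem52b, against 3.41% of all genes. Tmem52b met the filter only with its P4 arrays, so no weight rests on this count. Mecom and Tmem52b were also higher at P4 than at P3 (adjusted p = 0.00341 and 0.000602), with the call on Mecom lost in replicates 2 and 3 alone (0.0798). Umod and Slc12a1, which define the thick ascending limb, were under the filter. So were Sim2 and Irx1, whose groups did not overlap: Sim2 read 6.52 to 6.91 at P4 and 5.84 to 6.23 in cap mesenchyme, and Irx1 read 6.17 to 6.38 at P4 and 5.63 to 6.05 in cap mesenchyme. That of 8 ureteric bud markers was 1336 to 1531 at P4 and 912 to 1123 in cap mesenchyme, with Gata3 and Krt8 higher. Gata3 passed the filter through the P4 arrays alone, and Krt8 did not pass without P4 replicate 2 (adjusted p = 0.0929). The part of these cells in the values of Mme and Lrp2 was not tested.

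Endothelial, erythroid and macrophage cells are of interest because Aqp1 or Dab2 is also made by some of them, and the summed levels of their markers overlapped between groups. The sums were 850 to 972 at P4 against 781 to 927 in cap mesenchyme for 10 endothelial markers, 561 to 645 against 482 to 605 for 5 erythroid markers and 1085 to 1186 against 941 to 1222 for 12 macrophage markers. Pecam1, Cdh5, Csf1r and Adgre1 were all under the filter. The endothelial receptor gene Tek was under it too but did not overlap, at 5.69 to 5.83 at P4 and 5.25 to 5.56 in cap mesenchyme. Among the markers of these 3 lists it alone had all P4 arrays above or below cap mesenchyme. The sum of 12 stroma markers was 2530 to 2634 at P4 and 2080 to 3806 in cap mesenchyme, with Meis1 and Foxd1 lower at P4.

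Stroma markers had changed before P4. In P3 versus P0, 3 of the 11 stroma markers that passed the filter fell, against 2.18% of all genes called in either direction. They were Foxd1 (log2 difference -1.40, limma adjusted p = 0.000909), Postn (-1.59, 0.0106) and Pdgfra (-0.98, 0.0187). In the same contrast Cdh6, Jag1, Lhx1 and Enpep rose and the value of Lrp2 was lower. The call on Postn was lost without P0 replicate 2 (0.0549), and that on Pdgfra in replicates 2 and 3 alone (0.15) and without P0 replicate 1 (0.0783), P0 replicate 2 (0.0633) or P3 replicate 3 (0.0503). The macrophage marker Cd68 was also lower at P3 (-0.94, 0.0409) but did not pass in most of the cases when an array was left out, with adjusted p up to 0.182. Between P4 and P3 Foxd1 differed by 0.17 (adjusted p of 1). The part of stroma in the values of these days was not tested.

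The genes whose pattern was most like that of each receptor or apical gene were found by Pearson's r over the 15 arrays, after the mean of each replicate number was taken out, among 11884 others. The points share days and array sets, and a step at P4 weighs heavily in them, so r is given as a description. For Lrp2 the nearest were Hoxd8 (0.95), Fam149a (0.927) and Kif13b (0.92). For Mme they were P3h2 (0.972), Arhgap29 (0.956) and the laminin receptor gene Itga6 (0.953). The nearest gene to Anpep was Mme itself (0.907), followed by St6galnac3 (0.897) and Rbms3 (0.892). With the replicate means left in, r with Anpep was 0.609 for Mme, 0.835 for St6galnac3 and 0.897 for Rbms3. The first place of Mme thus depends on taking these means out.

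The 2 genes with no step at P4 had other neighbours. Those of Dab2 were Cog6 (0.935), Utrn (0.914) and Zfp507 (0.899), and those of Amn were Tmem74b (0.88), Fgf18 (0.853) and Gm14488 (0.816). Between the genes themselves r was 0.717 for Lrp2 and Mme and 0.638 for Lrp2 and Anpep. It was 0.471 for Lrp2 and its adaptor Dab2, -0.07 for Lrp2 and Cubn and -0.081 for Lrp2 and Amn.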

How the data were processed

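RNA of sorted Crym-EGFP cells was amplified and hybridised to 1-colour whole-transcript arrays. The authors deposited 1 table of log2 values for 35557 probe sets and 15 samples, which the labels credit to Affymetrix Expression Console. Its version, background correction and summarization were not given in the sources read, and the log2 scale was read from the range. Values were used as deposited. Their number of arrays limits the precision. The platform table gave 1 symbol to 21789 probe sets, several to 1621 (not used) and none to 12147, and 21698 of the first matched a RefSeq gene.

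Groups and replicate numbers came from the labels, a title with no number counting as replicate 1. A mean for each of 5 days was fitted to all 15 samples with limma 3.58.1 (R 4.3.3; lmFit, eBayes, two-sided), with Benjamini-Hochberg adjustment over 11885 genes and a threshold of 0.05. Contrasts were P4 versus cap mesenchyme (the 4 day means averaged), P4 versus P3, P3 versus P0 and the slope over P0 to P3. The genes named beyond the 8 are up to 4 of each list by p in the first contrast, the 3 most like each gene tested, Crym and Six2; others were chosen after their values were seen. Summed linear levels add 2 to the power of each value. Same-numbered samples deviated together (correlation above 0.1) in 18 of 18 pairs among P0 to P3, the lowest at 0.138. They did so in all P3 and P4 pairs and in 29 of 30 over all days (lowest 0.0782). The first replicates are the array set that stood apart, and samples of unlike number were not compared. The check therefore cannot show that numbers 2 and 3 pair samples. Alternatives covered filters, quantile normalization, the array set or replicate number as a block, replicates 2 and 3 alone, the mean of probe sets and leaving out each sample. No 2 arrays were the same (highest correlation 0.9898). The genes and lists were chosen with earlier results of these data known. The script was tested on simulated data.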

Additional observations from a re-analysis of the deposited data

How the results depend on the processing

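Of the tests of the 7 measured genes under all alternatives, 151 in P4 versus cap mesenchyme kept their direction where called and their side of the threshold and 3 newly passed, all Anpep. In P4 versus P3 150 did and 4 lost their call, all Mme, and in P3 versus P0 and in the slope all 154 did. The count of these genes called in P4 versus P3 fell to 1 in replicates 2 and 3 alone, and was 1 to 2 when single samples were left out (1 without P3 replicate 1, P4 replicate 1 or P4 replicate 2). With the replicate number as a block, Anpep passed in P4 versus cap mesenchyme (adjusted p = 0.00798), and the block changed no other call on the 7 genes. The pairing check, which 29 of 30 pairs passed, cannot show that numbers 2 and 3 pair samples.

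Over all genes tested the replicate block gave 1435 calls in P4 versus cap mesenchyme, against 681 without it, 422 against 177 in P4 versus P3, 770 against 259 in P3 versus P0 and 1009 against 372 in the slope. The array set block gave 1363, 398, 716 and 918. Leaving out P4 replicate 2 or 3 left 380 and 378 calls in P4 versus cap mesenchyme. Cubn and Aqp1 were dim in all arrays, so small differences in them could not be detected, and with 3 samples a day the intervals of Amn and Dab2 leave room for differences of -0.23 to 0.20 and -0.14 to 0.33.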
